A study of Mus musculus with 4 samples.

Results

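Glutathione transferases join the tripeptide glutathione to reactive molecules, or use glutathione as an electron donor, so that the products can be carried out of the cell. The enzymes form classes with related sequences, among them mu (Gstm), alpha (Gsta), pi (Gstp) and omega (Gsto), and many of their genes are known targets of NRF2, a transcription factor of the response to oxidative stress. Both Sertoli cells, the somatic cells that nurse germ cells in the seminiferous tubule, and germ cells are known to make them. The 6 genes described here are Gstm1, Gstm2, Gstm5, Gsta4, Gstp1 and Gsto1, out of 26041 gene symbols in the tables. They were chosen by measured values in these tables, and the rule reads their levels by genotype, library and cell, with and without cells that held 3 or more UMIs of Clu, the clusterin gene that Sertoli cells express strongly. The genotype and Clu values are therefore given as a description and nothing is read from how many of the 6 differ.

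Single tdTOMATO+ cells were sorted into wells from testes of 4 wk old mice that carried the Eomes-iCreERt2-tdTomato knock-in allele, and transcripts were counted at their 3′ ends by unique molecular identifiers (UMIs). Plzf +/+ mice have the normal gene (symbol Zbtb16), which encodes a transcription factor that undifferentiated spermatogonia need, and Plzf lu/lu mice are homozygous for its luxoid mutation. Every group carries the knock-in allele, and the reporter marks cells that express or recently expressed Eomes, so the cells are a sorted fraction of the testis. Plates 1, 2 and 4 gave 3 Plzf +/+ libraries, of 317, 303 and 277 cells, and 2 Plzf lu/lu libraries came from plate 3 (314 cells) and plate 4 (38 cells). The labels name plates and no animals, so the spread between libraries may be technical in part. The 5 libraries held 254514 to 2608702 UMIs, the smallest being Plzf lu/lu of plate 4, and the median cell held 5061 to 6365 UMIs. Levels are given in CPM, the UMIs of a gene per 1000000 UMIs of the library or group of cells. Zbtb16 stood at 53.1 to 77.0 CPM in Plzf +/+, against 17.6 and 11.8 in Plzf lu/lu. The germ cell marker Dazl had a UMI in 1121 of the 1189 cells outside the Clu group. Of the 1249 cells, 1231 shared their well barcode with a cell of another plate, as plates reuse the barcodes, and no 2 cells had the same UMI profile.

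Gstm5, Gstm2 and Gstm1 lie in 1 cluster on chromosome 3 (GRCm38, chr3:107895854-107898685, chr3:107981702-107986420 and chr3:108012250-108017973). Gsta4 lies at chr9:78191966-78209349, Gstp1 at chr19:4035411-4037912 and Gsto1 at chr19:47854973-47864790. The mu genes are close copies of each other, and Gstp1 has the near copy Gstp2, so the way the authors assigned reads between copies could shift counts among them. The promoters below are shown because Gstm1 and Gstm2 were higher in cells with 3 or more Clu UMIs than in the other cells of every library, Gsto1 was lower there in every library, and Gstm5 and Gstp1 went neither way throughout. Each covers 250 bases before and 50 bases after the RefSeq start (GRCm38.p6), read 5′ to 3′ on the gene's strand. Capitals mark TGACNNNGC or TGAGNNNGC, the core of the antioxidant response element that NRF2 binds, GGGCGG, the GC box, and TATAAA, each searched on both strands; no marked match overlaps another.
Gstm1, the downstream of 2 listed starts, minus strand, chr3:108017769-108018068: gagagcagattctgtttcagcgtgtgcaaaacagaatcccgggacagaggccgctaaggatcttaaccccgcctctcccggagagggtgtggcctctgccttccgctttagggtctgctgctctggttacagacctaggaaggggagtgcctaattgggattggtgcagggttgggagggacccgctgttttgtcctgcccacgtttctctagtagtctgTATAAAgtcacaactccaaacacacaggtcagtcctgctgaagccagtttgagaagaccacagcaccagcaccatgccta
Gstm2, minus strand, chr3:107986371-107986670: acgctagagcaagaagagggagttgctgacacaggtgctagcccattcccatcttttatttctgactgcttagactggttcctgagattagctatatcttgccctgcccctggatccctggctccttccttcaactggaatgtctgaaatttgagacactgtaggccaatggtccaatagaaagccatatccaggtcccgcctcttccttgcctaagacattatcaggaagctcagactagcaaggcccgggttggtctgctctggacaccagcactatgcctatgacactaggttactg
Gstm5, plus strand, chr3:107895604-107895903: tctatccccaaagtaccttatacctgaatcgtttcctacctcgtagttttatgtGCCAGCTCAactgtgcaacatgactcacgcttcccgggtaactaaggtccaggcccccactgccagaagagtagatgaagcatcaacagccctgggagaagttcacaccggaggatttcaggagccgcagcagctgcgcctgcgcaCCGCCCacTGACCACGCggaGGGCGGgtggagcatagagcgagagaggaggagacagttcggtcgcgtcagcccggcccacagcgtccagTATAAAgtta
Gstp1, minus strand, chr19:4037863-4038162: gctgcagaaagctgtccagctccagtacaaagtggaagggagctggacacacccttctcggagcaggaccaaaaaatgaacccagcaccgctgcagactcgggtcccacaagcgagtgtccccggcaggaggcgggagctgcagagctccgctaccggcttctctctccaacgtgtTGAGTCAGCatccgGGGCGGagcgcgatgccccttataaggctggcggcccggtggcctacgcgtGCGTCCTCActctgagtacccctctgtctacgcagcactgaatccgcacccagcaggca
Gsto1, plus strand, chr19:47854723-47855022: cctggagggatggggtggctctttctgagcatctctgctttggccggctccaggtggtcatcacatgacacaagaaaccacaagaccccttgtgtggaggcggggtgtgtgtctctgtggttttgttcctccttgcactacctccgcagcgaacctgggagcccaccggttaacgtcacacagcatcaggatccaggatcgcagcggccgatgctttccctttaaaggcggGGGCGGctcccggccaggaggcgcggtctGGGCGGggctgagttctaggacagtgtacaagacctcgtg

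Gstp1 held the core TGAGTCAGC with its first base at position -74 from the start, and a second match of that form at position -9. Gstm5 held TGACCACGC at position -42 and a match to the other form at position -196. The windows of Gstm1, Gstm2 and Gsto1 held neither form. Gstm1 had a TATAAA at position -30, and Gstm5 had one at position 40. Gsto1 had 2 GC boxes, Gstm5 had GC boxes at positions -50 and -30, and Gstp1 had one at position -60. Gstm2 had none of the motifs. Among all 32851 listed promoter windows of this length, 12.4% held TGACNNNGC, 17.6% TGAGNNNGC, 35.7% GGGCGG and 13.6% TATAAA, so each is common, and a match describes the letters only.

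Levels differed widely among the 6 genes. Each UMI stands for 1 captured 3′ end, so the CPM were not divided by gene length. Averaged over the libraries of a genotype, Gstm5 was highest in both (489 CPM in Plzf +/+ and 569 in Plzf lu/lu), followed by Gsta4 (117 and 257). In Plzf +/+ Gstp1 (57.1) and Gsto1 (56.1) came next, at nearly the same level, then Gstm1 (28.3) and Gstm2 (17.3). In Plzf lu/lu the order was Gsto1 (134), Gstm1 (106), Gstm2 (89.9) and Gstp1 (76.8). The ranges over libraries of Gstp1 and Gsto1 overlapped in Plzf +/+ (46.8 to 67.6 and 53.9 to 60.6); the other neighbours did not overlap in Plzf +/+ or in Plzf lu/lu. By cell, a UMI was found for Gstm5 in 881 of 1249 cells (70.5%; exact 95% interval 67.9 to 73.1), for Gsta4 in 670 (53.6%; 50.8 to 56.4), for Gsto1 in 450 (36.0%; 33.4 to 38.8), for Gstp1 in 405 (32.4%; 29.8 to 35.1), for Gstm1 in 212 (17.0%; 14.9 to 19.2) and for Gstm2 in 118 (9.45%; 7.88 to 11.2). These intervals and those below are Clopper-Pearson intervals and cover counting error only. No cell type known to lack all 6 genes was present in numbers to set a background; 12 cells with 3 or more UMIs of T and NK cell markers, and neither Clu nor spermatid transcripts at that level, held no Gstm1 or Gstm2 UMI, and 2 or 3 of them held each of the other members (median 1437 UMIs per cell, against 5942 over all cells).

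The genes also differed in how unevenly their transcripts were spread. The 10 cells richest in Gstm5 held 1098 of its 4740 UMIs (23.2%), and 1 Plzf +/+ cell of plate 2 held 176. The 10 richest cells held 37.8% of the Gstm2 and 32.8% of the Gstm1 UMIs, against 9.68% for Gsta4, 9.64% for Gsto1 and 7.96% for Gstp1. For Gstp1 no cell held more than 6 UMIs, and 269 of its 405 positive cells held 1. Gstm5 was thus both the most widely detected of the 6 and the one with the richest single cell. For Gstm1, 138 of the 212 positive cells held 1 UMI.

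Gstm1, a mu transferase, had 29.1, 30.3 and 25.4 CPM in Plzf +/+ (plates 1, 2 and 4, the order used throughout) and 103 and 110.01 in Plzf lu/lu (plates 3 and 4). Gstm2, its neighbour in the cluster, had 13.6, 19.4 and 19.0 in Plzf +/+ and 85.5 and 94.3 in Plzf lu/lu. Both Plzf lu/lu libraries lay above every Plzf +/+ library for both genes, as they did for 16.0% of the 13728 genes tested. The means were 28.3 ± 2.56 (SD, n = 3) and 106 ± 5.15 (SD, n = 2) for Gstm1, and 17.3 ± 3.21 and 89.9 ± 6.23 for Gstm2. In the edgeR fit over all genes the log2 fold change of Plzf lu/lu against Plzf +/+ was 1.94 (SE 0.19) for Gstm1 and 2.40 (SE 0.24) for Gstm2.

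Gstm5, the mu member known for high levels in testis, had 290.2, 615 and 563 CPM in Plzf +/+ and 529 and 609 in Plzf lu/lu. The groups overlapped, since the Plzf +/+ library of plate 1 was low and that of plate 2 was the highest of all. The log2 fold change was 0.25 (SE 0.34).

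Gsta4, an alpha transferase that clears reactive aldehydes formed when lipids are oxidized, had 117, 126 and 107 CPM in Plzf +/+ and 291 and 224 in Plzf lu/lu. Gsto1, an omega transferase that reduces dehydroascorbate and mixed disulfides, had 60.6, 54.0 and 53.9 in Plzf +/+ and 142 and 126 in Plzf lu/lu. Neither gene overlapped between the genotypes, which with Plzf lu/lu higher was so for 16.0% of the genes tested. The means were 117 ± 9.62 and 257 ± 47.4 for Gsta4, with a log2 fold change of 1.21 (SE 0.16), and 56.1 ± 3.85 and 134 ± 11.7 for Gsto1, with 1.32 (SE 0.17).

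Gstp1, the pi transferase, had 67.6, 46.8 and 56.9 CPM in Plzf +/+ and 82.8 and 70.7 in Plzf lu/lu. Both Plzf lu/lu libraries were above all Plzf +/+ libraries, by a small margin over plate 1, an order that 16.0% of the genes tested had. Its log2 fold change was 0.51 (SE 0.22).

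Here 4 of the 6 genes (Gstm1, Gstm2, Gsta4 and Gsto1) had an adjusted p under 0.05, all higher in Plzf lu/lu, where 0.816% of the 13728 genes tested were called (0.583% higher, 0.233% lower); the rule rests on this contrast, so nothing is read from the count. None of the 6 was called when Plzf +/+ of plate 2 or 4 or either Plzf lu/lu library was left out, and 5 were called without Plzf +/+ of plate 1. In the fits that lost the calls the log2 fold changes were 1.84 to 1.98 for Gstm1, 2.35 to 2.47 for Gstm2, 0.96 to 1.37 for Gsta4 and 1.18 to 1.39 for Gsto1, and 1 to 6 of all genes were called. The fit without Plzf +/+ of plate 1, in which Gstp1 was the gene added (0.68), called 1387 of 13631 genes, 729 of them higher. Within plate 4, the 1 plate that held both genotypes, the log2 differences were 2.06 for Gstm1, 2.25 for Gstm2, 1.05 for Gsta4, 1.20 for Gsto1, 0.30 for Gstp1 and 0.11 for Gstm5, with 38 Plzf lu/lu cells behind them.

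**Figure D1:**
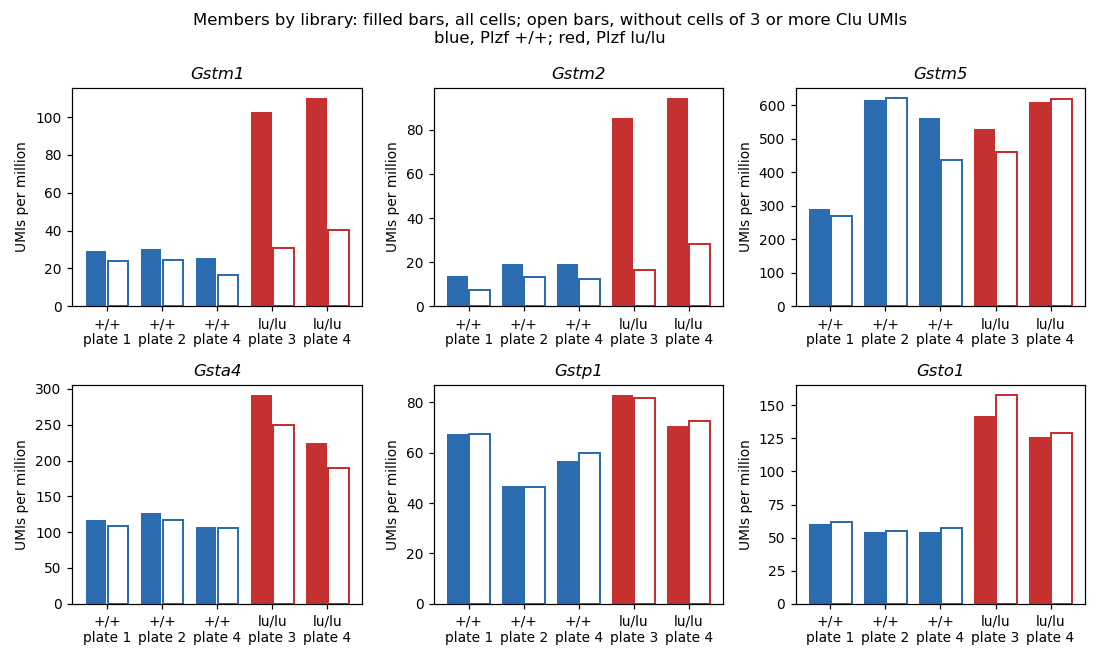
Level in CPM (y axis; UMIs per 1000000 UMIs) of each gene in the 5 libraries (x axis), with blue for Plzf +/+ and red for Plzf lu/lu, filled bars for all cells and open bars without cells of 3 or more Clu UMIs; each bar is 1 library. The red bars of Gstm1 fall from 103 and 110.01 to 31.1 and 40.4 when those cells are removed, while those of Gsto1 do not fall.

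Cells with 3 or more Clu UMIs (Clu cells from here on) numbered 7, 9 and 8 in Plzf +/+ and 34 and 2 in Plzf lu/lu, that is 2.68% and 10.2% of the cells of each genotype. Without Clu, the gene that chose these cells, the Sertoli cell list summed to 4984 CPM in them and 491 in the other cells, and 17 of its other 19 genes were higher in the Clu cells; Amh is not listed in the tables. Of these UMIs 3 or more were held by 58 of the 60 Clu cells, and also by 580 of the 1189 other cells. Amhr2 was found in 47 of the 60, Sox9 in 24 and Wt1 in 21. Germ cell transcripts were present too, with Dazl in 37 of the 60, and the spermatid list stood at 17330 CPM against 2861 in the other cells. The labels call all the cells germ cells, which these markers go against for part of the 60, and whether a well held 1 Sertoli cell, a Sertoli cell with germ cell RNA or 2 cells was not tested. Without Clu the Sertoli list stood at 564 to 619.9 CPM in Plzf +/+ and at 1341 and 872 in Plzf lu/lu, a difference that goes with the genotype as Gstm1 and Gstm2 do. Fewer cells of a type and less RNA per cell cannot be told apart in such library sums.

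The Clu cells held 265 of all 481 Gstm1 UMIs (55.1%) and 247 of all 360 Gstm2 UMIs (68.6%). They held 281 of 1581 Gsta4 UMIs (17.8%), 757 of 4740 Gstm5 UMIs (16.0%), 45 of 603 Gstp1 UMIs (7.46%) and 22 of 768 Gsto1 UMIs (2.86%), and they were 4.80% of the cells. The 34 Clu cells of Plzf lu/lu plate 3 held 73.9% of the Gstm1 and 83.4% of the Gstm2 UMIs, with 13.6% of all UMIs. In the 3 Plzf +/+ libraries the Clu cells held 20.8% to 41.2% of the Gstm1 and 32.6% to 48.3% of the Gstm2 UMIs, with 2.80% to 8.36% of all UMIs.

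Within every library Gstm1 and Gstm2 were higher in Clu cells than in the rest. Gstm1 in Clu cells stood at 191, 226 and 125 CPM in Plzf +/+ of plates 1, 2 and 4, and at 558 and 2502 in Plzf lu/lu of plates 3 and 4, the last from 2 cells. Gstm2 in Clu cells stood at 206, 226 and 89.5 in Plzf +/+ and at 525 and 2363 in Plzf lu/lu. The remaining cells had 16.3 to 40.4 CPM of Gstm1 and 7.28 to 28.3 of Gstm2 over the 5 libraries. Gsta4 was also higher in the Clu cells of all libraries (119 to 1390, against 106 to 249.8 in the rest), with the margin smallest in Plzf +/+ of plate 4. Gsto1 went the other way, with 0 to 45.1 in Clu cells and 55.1 to 157 in the rest, lower in all libraries; the 0 was from the 2 Clu cells of Plzf lu/lu plate 4. Gstm5 was not alike across libraries, at 437 in the Clu cells of Plzf +/+ plate 2 and 278 in those of Plzf lu/lu plate 4, both under the rest of their library, and at 882 to 1939 in the other Clu groups, above it.

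The cells were also divided by their number of Clu UMIs. From cells with no Clu UMI, through 1, 2 and 3 to 9, to 10 or more, Gstm1 went from 23.1 to 27.9, 59.4, 195 and 662 CPM, and Gstm2 from 9.81 to 22.1, 66.0, 195 and 599.5. Gsta4 stayed between 132 and 168 up to 2 Clu UMIs and then stood at 308 and 572. Gsto1 stood at 85.1, 90.6 and 85.8, then at 45.5 and 17.2, while Gstp1 lay between 56.2 and 82.7 throughout. Gstm5 was higher in each class than in the one before, at 419, 608, 999.8, 1087 and 1209. These are sums over cells of all libraries, and the last 3 classes held 25, 39 and 21 cells. Of the 60 Clu cells 46 also held 3 or more UMIs of the spermatid list, and the part of spermatid transcripts in the Gstm5 values was not tested.

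**Figure D2:**
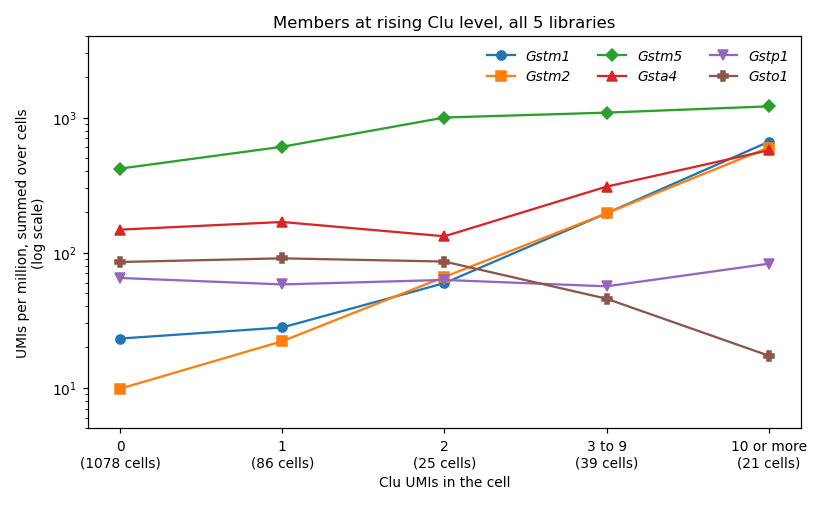
Level in CPM (y axis; UMIs per 1000000 UMIs, on a log scale) of the 6 genes, summed over the cells of all 5 libraries, in 5 classes of cells by their number of Clu UMIs (x axis, with the number of cells). Gstm1 and Gstm2 stand at 23.1 and 9.81 in the first class and at 662 and 599.5 in the last, Gsto1 stands at 85.1 and 17.2, and Gstp1 stays between 56.2 and 82.7.

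Without the Clu cells, 873 Plzf +/+ and 316 Plzf lu/lu cells remained. Gstm1 then had 23.8, 24.7 and 16.3 CPM in Plzf +/+ and 31.1 and 40.4 in Plzf lu/lu. Gstm2 had 7.28, 13.4 and 12.5 in Plzf +/+ and 16.4 and 28.3 in Plzf lu/lu. The Plzf lu/lu libraries were still above the Plzf +/+ libraries, as for 15.6% of the 13595 genes tested, but the log2 fold changes were 0.72 (SE 0.30) and 0.91 (SE 0.43), under the 1.94 and 2.40 of all cells. When cells with even 1 Clu UMI were removed they were 0.66 and 0.37.

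Gsta4 and Gsto1 kept values near those of all cells. Gsta4 had 109, 118 and 106 CPM in Plzf +/+ and 249.8 and 190.0 in Plzf lu/lu, with a log2 fold change of 1.08 (SE 0.17). Gsto1 had 61.6, 55.1 and 57.1 in Plzf +/+ and 157 and 129 in Plzf lu/lu, with 1.40 (SE 0.18). For both genes the 2 genotypes did not overlap, with Plzf lu/lu higher as for 15.6% of the genes tested. Gstp1 (0.50, SE 0.23) and Gstm5 (0.33, SE 0.35) were close to their values in all cells.

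Of the 6 genes 2, Gsta4 and Gsto1, were called higher without the Clu cells, beside 0.449% of the 13595 genes tested that were called (0.302% higher, 0.147% lower). The rule rests on this contrast too. Neither was called when any 1 library other than Plzf +/+ of plate 1 was left out, or within Gfra1-positive or Gfra1-negative cells alone. The log2 fold changes in those fits were 0.80 to 1.26 for Gsta4 and 1.07 to 1.53 for Gsto1. Gstm5 was called beside them after thinning (0.71; edgeR adjusted p = 0.0336) and without the cells with spermatid transcripts (0.75; edgeR adjusted p = 0.00038), where 342 and 1534 of all genes were called. Within plate 4 the log2 differences were 1.17 for Gsto1 and 0.84 for Gsta4, and 1.26 for Gstm1 and 1.11 for Gstm2. In the same cells the Sertoli list without Clu stood at 476 to 499.7 CPM in Plzf +/+ and at 477 and 635 in Plzf lu/lu. Gene by gene, 10 of the 11 genes of the full list that could be tested were higher in Plzf lu/lu. Their median log2 fold change was 1.17 against -0.01 over all genes, and 0 were called. Clu, under 3 UMIs in each of these cells, was at 1.48 (SE 0.38). The part of Sertoli cell RNA in the remaining values was not tested.

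**Figure D3:**
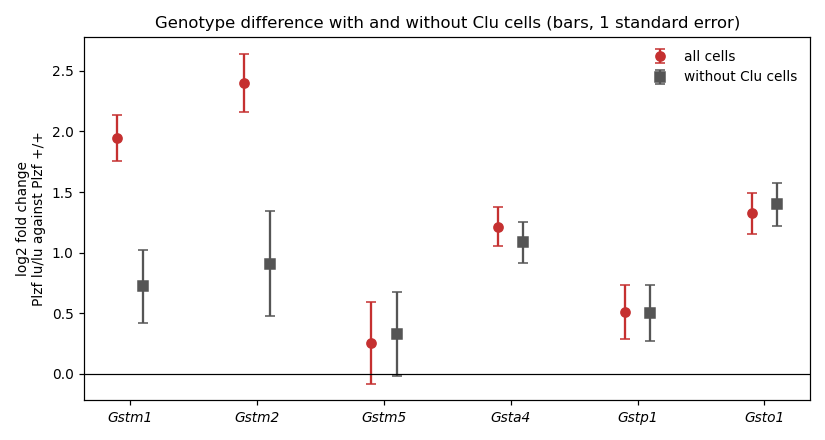
Log2 fold change of Plzf lu/lu against Plzf +/+ (y axis) for each gene (x axis) from library sums of all cells (red circles) and without cells of 3 or more Clu UMIs (grey squares); bars are 1 standard error. Gstm1 and Gstm2 drop from 1.94 and 2.40 to 0.72 and 0.91, and each of the other 4 genes moves by less than 1 standard error.

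Outside the Clu cells, the share of cells with a UMI was higher in Plzf lu/lu for each of the 6 genes when the cells of a genotype were pooled. Gsto1 was detected in 252 of 873 Plzf +/+ cells (28.9%; 25.9 to 32.0) and in 185 of 316 Plzf lu/lu cells (58.5%; 52.9 to 64.0). Gsta4 was detected in 45.6% (42.2 to 49.0) and 68.4% (62.9 to 73.4), Gstp1 in 29.1% (26.1 to 32.2) and 38.3% (32.9 to 43.9), Gstm5 in 66.6% (63.3 to 69.7) and 80.1% (75.2 to 84.3), Gstm1 in 10.997% (8.998 to 13.3) and 21.2% (16.8 to 26.1), and Gstm2 in 4.81% (3.49 to 6.45) and 9.81% (6.76 to 13.6). The median cell held 5877 and 6309 UMIs in these groups. After every cell was thinned to 2000 UMIs, Gsto1 was found in 10.6% of Plzf +/+ and 30.1% of Plzf lu/lu cells, Gsta4 in 20.2% and 39.1%, Gstp1 in 11.2% and 18.4%, Gstm5 in 38.4% and 53.2%, Gstm1 in 4.43% and 6.69% and Gstm2 in 1.85% and 3.01%. By library the Gstm5 share overlapped between the genotypes, at 64.8%, 66.7% and 68.4% in Plzf +/+ and at 82.9% and 58.3% in Plzf lu/lu, so that the higher pooled share came from plate 3. For the other 5 genes both Plzf lu/lu libraries lay above all Plzf +/+ libraries before thinning, as for 15.9% of the 13595 genes tested, so that nothing is read from the 5; after thinning, Plzf lu/lu of plate 4 had no Gstm2 UMI in 27 cells.

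The genes were next compared between Gfra1-positive and Gfra1-negative cells, a contrast that the rule does not name. Gfra1 encodes the receptor subunit for GDNF, a growth factor that stem and early progenitor spermatogonia need. Without the Clu cells, 684 cells held at least 1 Gfra1 UMI and 505 held none, with medians of 6849 and 4675 UMIs per cell, so that negative cells include shallower ones. Over all cells, 58.1% to 66.0% of the cells of a Plzf +/+ library were Gfra1-positive, against 37.9% and 39.5% in Plzf lu/lu.

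Gsto1 had 58.8, 47.3 and 50.3 CPM in Gfra1-positive cells of Plzf +/+ plates 1, 2 and 4, against 67.9, 84.0 and 72.0 in Gfra1-negative cells. In Plzf lu/lu of plates 3 and 4 it had 156 and 128 in positive and 159 and 131 in negative cells. It was lower in the positive cells of 5 of 5 libraries, by a narrow margin in Plzf lu/lu, and the log2 difference was -0.39 (SE 0.15; edgeR quasi-likelihood test with library as a block, Benjamini-Hochberg adjusted p = 0.36). After the cells were thinned to 2000 UMIs it was -0.04 (SE 0.24; edgeR adjusted p = 0.978). Gsta4 had 124, 118 and 108 in positive and 74.2, 115 and 103 in negative Plzf +/+ cells, and 254 and 208 in positive and 244 and 171 in negative Plzf lu/lu cells. It was higher in the positive cells of all 5 libraries, with a log2 difference of 0.16 (SE 0.14; edgeR adjusted p = 0.738).

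The log2 differences were -0.20 (SE 0.26) for Gstm1, -0.23 (SE 0.34) for Gstm2, -0.34 (SE 0.32) for Gstm5 and 0.07 (SE 0.18) for Gstp1. None of the 6 was called by edgeR, beside 0.583% of the 9951 genes tested (0.241% higher and 0.342% lower in the positive cells). Gsto1 alone of the 6 had an unadjusted p under 0.05 in that fit, and DESeq2 called none. After thinning, where 143 of 4658 genes were called (92 lower in the positive cells), 1 of the 4 genes that could be fitted was called. It was Gstm5, which was lower in the positive cells (-0.70, SE 0.12; edgeR adjusted p = 4.14e-05). Differences of about the size of these standard errors would not have been detectable. With the Clu cells kept, the differences were -1.24 for Gstm1 and -1.89 for Gstm2 (edgeR adjusted p = 0.332 and 0.129). In the test of whether the difference between classes itself differed between the genotypes, none of the 6 was called in an edgeR fit that called 0 genes and had 276 with an unadjusted p under 0.05. For Gsto1 that log2 difference between genotypes was 0.44 (SE 0.31).

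The genes were also compared by spermatid transcripts. Cells with 3 or more UMIs summed over 12 spermatid genes (protamines, transition proteins, acrosome and tail genes) numbered 38, 104 and 86 in Plzf +/+ and 55 and 9 in Plzf lu/lu, without the Clu cells. In them Gstm5 had 703, 985 and 701 CPM in Plzf +/+ of plates 1, 2 and 4 and 697 and 1239.8 in Plzf lu/lu of plates 3 and 4. In the other cells it had 183, 219.6 and 218 in Plzf +/+ and 365 and 241 in Plzf lu/lu. The 2 classes did not overlap, and 11.8% of the genes tested were higher in the first class in this way. The log2 difference was 1.83 (SE 0.18; edgeR with library as a block, adjusted p = 1.14e-06), higher in 5 of 5 libraries.

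Gstm2 moved the same way, with 11.5, 18.2 and 22.8 CPM in the cells with spermatid transcripts of Plzf +/+ and 32.4 and 74.8 in Plzf lu/lu, against 0 to 9.96 in the other cells. The other cells of Plzf lu/lu plate 4 held no Gstm2 UMI, and 3 UMIs there would be 19.5 CPM. The log2 difference was 1.79 (SE 0.36; edgeR adjusted p = 3.23e-05), on 73 and 40 UMIs. Of 6 tested genes of the Sertoli list 4 were also called higher in the cells with spermatid transcripts (median 1.82), beside 18.7% of all genes tested. Clu was at 1.25 (SE 0.33, edgeR adjusted p = 0.00212), and the part of Sertoli cell RNA in the Gstm2 value was not tested. Gsto1 was lower in the cells with spermatid transcripts, at 37.3, 39.7 and 51.6 against 66.6, 72.0 and 61.7 in Plzf +/+ and at 105 and 53.4 against 179 and 176 in Plzf lu/lu, with a log2 difference of -0.68 (SE 0.17; edgeR adjusted p = 0.00112). Gsta4 was lower as well (-0.41, SE 0.14; edgeR adjusted p = 0.0163), while Gstp1 (-0.40, SE 0.18; edgeR adjusted p = 0.0865) and Gstm1 (0.14, SE 0.27; edgeR adjusted p = 0.718) did not pass the test.

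This comparison was added after the values were seen. It called 3147 of 10241 genes (30.7%), with 18.7% higher and 12.1% lower, and the median log2 difference over all genes was -0.14, so that a call there is common. The cells with spermatid transcripts were deeper, with a median of 8132 UMIs against 5442. Without cells of over 4 times the median depth, Gstm5 was still called (1.47; edgeR adjusted p = 0.0439), and Gsto1 (-0.40; 0.103) and Gsta4 (-0.21; 0.339) were not, and Gstm2 had too few counts to be tested. After thinning, Gstm5 was called (1.65) and Gsto1 (-0.29; edgeR adjusted p = 0.708) and Gsta4 (-0.49; edgeR adjusted p = 0.173) were not.

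With the spermatid class set aside, Gfra1-positive and Gfra1-negative cells of Plzf +/+ had overlapping ranges of Gstm5, 171 to 217 and 210.3 to 230.3 CPM over the 3 libraries. The log2 difference between the classes over all 5 libraries was -0.19 (SE 0.10, edgeR adjusted p = 0.311). In Plzf lu/lu of plates 3 and 4 the positive cells had 339.8 and 315, and the negative cells 390.4 and 155. Without spermatid transcripts in either genotype the log2 fold change of Gstm5 between genotypes was 0.74 in all cells and 0.75 without the Clu cells, against 0.25 and 0.33 with them, and this value comes from an alternative added after the data were seen. Gsto1 had 57.0 to 66.0 in Gfra1-positive and 68.6 to 83.8 in Gfra1-negative Plzf +/+ cells, and in Plzf lu/lu it had 174 and 157 in positive and 183 and 197 in negative cells. Gsta4 had 127 to 166 and 81.8 to 111 in Plzf +/+, and in Plzf lu/lu it had 249.6 and 206 in positive and 277 and 253 in negative cells. In both classes every Plzf lu/lu library lay above every Plzf +/+ library for Gsto1 and Gsta4, as for 15.5% of the 9951 genes in positive and 12.5% in negative cells.

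**Figure D4:**
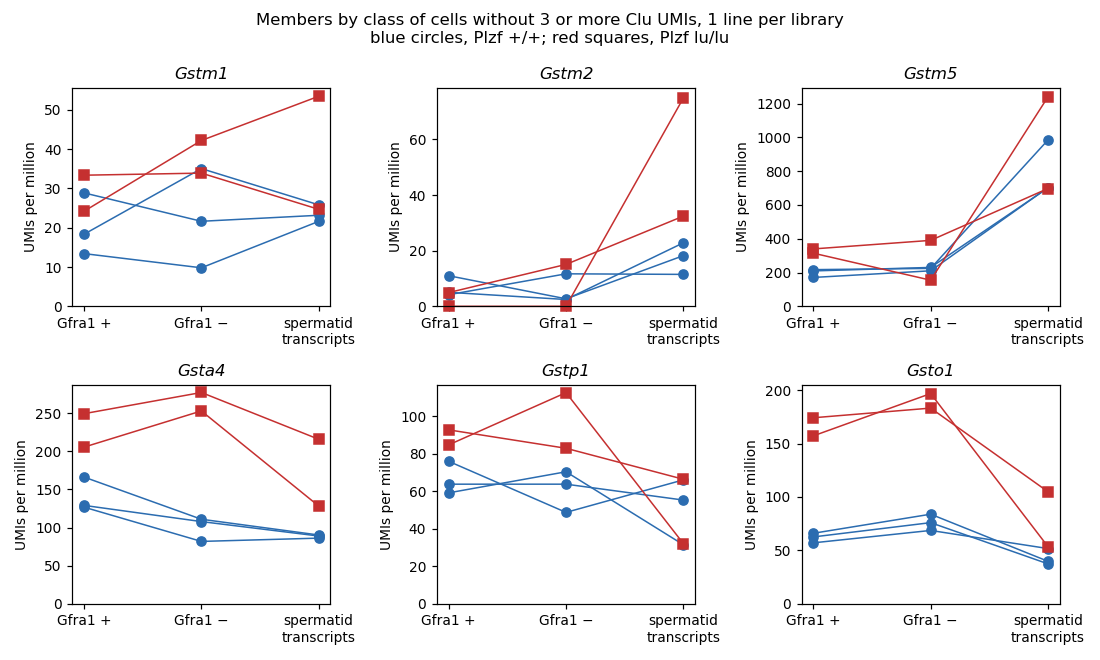
Level in CPM (y axis; UMIs per 1000000 UMIs) of each gene in Gfra1-positive, Gfra1-negative and spermatid-transcript cells (x axis), none with 3 or more Clu UMIs and the Gfra1 classes without spermatid-transcript cells; each line is 1 library, blue circles Plzf +/+ and red squares Plzf lu/lu. Gstm5 rises to between 697 and 1239.8 in the spermatid-transcript cells of every library. The red lines of Gsta4 and Gsto1 lie above the blue lines in both Gfra1 classes, as for 15.5% and 12.5% of the genes tested. In the spermatid-transcript cells the lowest red value of Gsto1 is 53.4, from 5 UMIs in 9 cells, and the highest blue value is 51.6.

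Across the 873 single Plzf +/+ cells outside the Clu group, the genes most like each member were ranked by Pearson's r of log2(UMIs per 10000 + 1) within each library, averaged over the 3 libraries, among 8460 other genes with a UMI in at least 10% of Plzf +/+ cells. Gstm5 was most like Crisp2 (mean r = 0.50; 0.44 to 0.59 over libraries), which encodes a protein of the acrosome and sperm tail, Hspb9 (0.49), a small heat shock protein gene of the testis, and Aqp11 (0.48), an aquaporin gene. Gstm1 was most like Defb19 (0.29), which is among the Sertoli genes listed here, Tmsb4x (0.20), an actin-binding peptide gene, and Gstm6 (0.19). With all cells kept, the same 3 genes were the highest for Gstm1, with Defb19 at 0.48, Gstm6 at 0.37 and Tmsb4x at 0.36. The likest genes were weakly correlated for Gsta4 (Esd, 0.18), Gstp1 (Rps16-ps2, 0.22) and Gsto1 (Mif, 0.23), and nothing is read from them. Gstm2 was found in 6.47% of Plzf +/+ cells and was not ranked. Between members, the highest r was that of Gstm1 with Gstm2 (mean 0.38 in Plzf +/+ and 0.24 in Plzf lu/lu cells outside the Clu group, with 17 and 9 cells holding both), and every other pair had a mean r between -0.12 and 0.13. Cells of 1 library share their depth and preparation, and close copies may share reads.

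The other genes of the pathway were read from fixed lists, by their counts and medians in the genotype fits. Of 22 other glutathione transferases 16 were tested over all cells, with a median log2 fold change of 0.59 against 0.00 over all genes, and 2, both of the mu cluster, were called higher, beside 0.583% of all genes. Gstm6 had 20.2, 22.3 and 26.4 CPM in Plzf +/+ and 68.2 and 62.9 in Plzf lu/lu (1.57, SE 0.24; edgeR adjusted p = 0.0319). Gstm7 had 8.45, 10.5 and 6.98 in Plzf +/+ and 39.9 and 35.4 in Plzf lu/lu (2.19, SE 0.30; edgeR adjusted p = 0.0229). Like Gstm1 and Gstm2, both were high in the Clu cells, at 264 and 178 CPM against 19.3 and 5.97 in the other cells, and without the Clu cells their log2 fold changes were 0.46 (SE 0.34) and 1.31 (SE 0.59), neither called. Of 15 tested without the Clu cells none was called by edgeR. The highest of this list were Gstt4, a theta transferase gene, at a mean of 105 CPM, with 28.2 to 142 in Plzf +/+ and 64.4 and 165 in Plzf lu/lu, and Gsto2, the omega copy, at 50.3, with 28.6 to 75.3 and 42.2 and 39.3. Gstt4 (6.41, SE 0.28) and Gsto2 (2.04, SE 0.20) were both called higher in the cells with spermatid transcripts, as were 3 of the 11 listed genes and 18.7% of all genes tested there, while Gsto1 was lower.

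Genes that make and recycle glutathione did not pass the test: 0 of 13 tested were called with or without the Clu cells (median 0.17 and 0.14). Its highest genes were Esd, an esterase that releases glutathione from its formaldehyde adduct (0.35, SE 0.19), and Gsr, the glutathione reductase (0.17, SE 0.16). Of 23 tested peroxidase, superoxide dismutase and thioredoxin genes none was called (median 0.37 and 0.40), led in level by Prdx1 (0.40, SE 0.14) and Sod1 (0.47, SE 0.14). Of 18 tested genes of NRF2 and its other targets, 1 was called, beside 0.816% of all genes tested (0.233% lower). It was Txnip, which encodes an inhibitor of thioredoxin and was lower (-0.90, SE 0.14; edgeR adjusted p = 0.0351). The ferritin heavy chain gene Fth1 had 1123 to 1217 CPM in Plzf +/+ and 2033 and 1666 in Plzf lu/lu (0.72, SE 0.13; edgeR adjusted p = 0.0541). Without the Clu cells none of the 18 was called (median 0.18), and Txnip was at -0.85 (SE 0.16; edgeR adjusted p = 0.073).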

How the data were processed

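Single tdTOMATO+ cells of 4 wk old mice were lysed in wells, reverse transcribed with a barcode per well and a UMI per molecule, amplified for 13 cycles and sequenced from the 3′ end. Per the labels and the submitters' processing notes, the build was GRCm38 and the tools were bcl2fastq 2.18.0.12, Picard 2.9.3 and STAR 2.5.4a; how reads were counted per gene is not given in the sources used here. The authors deposited raw UMI counts per gene symbol and cell in 1 table per genotype, unnormalized, for the cells they kept. A gene missing from 1 table was taken as 0 there. The suffix of each cell name gave its library, and on plate 4 the table gave the genotype; 5 Plzf +/+ cells there lay in wells that the label gives to Plzf lu/lu and were kept. No doublets were removed.

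UMI counts were summed per library (or per library and class of cells) and tested with edgeR 4.0.16 in R 4.3.3 (filterByExpr, TMM, robust glmQLFit and glmQLFTest), with Benjamini-Hochberg adjustment over all genes tested and a threshold of 0.05. All 6 genes passed the filter in each of these fits. The exact permutation test of 3 against 2 libraries cannot reach the threshold and was not used. A cell was put in a class by at least 3 Clu UMIs, 1 Gfra1 UMI or 3 UMIs over a marker list. Gfra1 was left out of the fits between Gfra1 classes, and the spermatid list out of the spermatid-transcript comparison. Clu stayed in the genotype fits without the Clu cells, and Gfra1 in those of a single Gfra1 class. Plzf +/+ replicates 1, 2 and 3 are plates 1, 2 and 4, and Plzf lu/lu replicates 1 and 2 are plates 3 and 4. Alternatives were DESeq2 1.42.0, RLE factors, no filter, thinning to 2000 UMIs (82 cells were shallower and left out), each library left out, and other sets of cells. The fits were tested on simulated data. The members and lists were chosen with earlier results of these data known. Named were the 6 members and, of each other list, the genes called between genotypes and the 2 with the highest mean level. Leydig and macrophage lists had 4 of 8 and 4 of 7 genes in the tables, and no cell reached 3 UMIs of either. Sequences come from RefSeq windows (GRCm38.p6), which matched 5 of the 6 genes.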

Additional observations from a re-analysis of the deposited data

How the results depend on the processing

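With all cells, 4 members were called in the genotype comparison, and 4 to 6 with RLE factors, DESeq2, no filter, thinning, without deep cells, without the 5 cells in the other genotype's wells and (chosen after seeing the data) without spermatid-transcript cells. All 6, Gstm5 and Gstp1 among them, were called after thinning (0.66 and 0.92) and without spermatid-transcript cells (0.74 and 0.55). Those fits called 413 of 8927 and 1530 of 10839 genes, against 112 of 13728 in the main fit. Leaving out each library gave 0 to 5 members called, Gfra1-positive cells alone gave 0 and Gfra1-negative cells alone gave 3. Without the Clu cells 2 were called; leaving out each library gave 0 to 2, Gfra1-positive or Gfra1-negative cells alone gave 0, removing only cells with 10 or more Clu UMIs gave 1, and thinning, leaving out spermatid-transcript cells and leaving out cells with other cell type markers gave 3 each, the third being Gstm5. The labels' replicate number as a replicate block gave 0 members called in both. Same-numbered libraries correlated at 0.023 and -0.006 in their deviations, and the libraries of the 2 genotypes on plate 4 at 0.047. As the value was also low for a shared plate, the correlations cannot tell whether same-numbered libraries share a batch. Between Gfra1 classes 0 were called under all alternatives but thinning, which called 1, Gstm5 (-0.70; edgeR adjusted p = 4.14e-05, with adjusted p up to 0.957 under the others). With no replicate block (library not in the fit) 0 were called there, and 2 in the spermatid-transcript comparison. That comparison called 4 members, 2 to 5 with each library left out, 1 after thinning and 1 without deep cells; Gstm5 was called in all 8 alternatives. The sign turned for Gstm5 between genotypes in all cells (-0.132 in Gfra1-positive cells alone, and -0.0221 to 0.4295 with each library left out), and between Gfra1 classes for Gsta4 with Clu cells kept (-0.065) and for Gstm2 (-0.4107 to 0.0014) and Gstp1 (-0.0606 to 0.2305) with each library left out. With Clu cells kept, Gstm1 and Gstm2 moved there from -0.20 and -0.23 to -1.24 and -1.89. In the spermatid-transcript comparison it turned for Gstm1 with each library left out (-0.0173 to 0.3705) and for Gstp1 after thinning (0.0401). None of these was called, and the causes were not tested. Gstm1, Gstm2, Gsta4, Gstp1 and Gsto1 were higher in Plzf lu/lu under every alternative in which they could be fitted, with Gsto1 between 0.89 and 1.62 and Gsta4 between 0.80 and 1.49 on the log2 scale. Over all cells Gstm1 ranged from 0.41 to 2.24 and Gstm2 from 0.69 to 2.54, the lowest in Gfra1-positive cells alone (SE 0.32 and 0.56), and Gstp1 from 0.30 to 0.92; without the Clu cells Gstm1 ranged from 0.54 to 1.26, Gstm2 from 0.37 to 1.37 and Gstp1 from 0.28 to 0.77. The counts of all genes called also moved, from 112 to between 0 and 1530 over all cells and from 61 to between 1 and 1534 without the Clu cells. Within plate 4 there is no residual spread, so no test. The 254514 UMIs of the smallest library limit the genes of low level, Gstm1 and Gstm2 first.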
